A study of Mus musculus with 10 samples.

Results

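Mature T follicular helper (Tfh) cells of BXD2 mouse spleen were studied here, chosen from single-cell RNA libraries by the raw unique molecular identifier (UMI) counts of named genes. A cell was a member when it passed quality control (at least 200 genes and at most 10% mitochondrial UMIs), had a UMI of Cd3e, Cd3d or Cd3g and none of Cd79a, Cd8a, Cd8b1 or Foxp3, had at least 2 of the 8 gate genes Cxcr5, Pdcd1, Il21, Tox2, Sh2d1a, Tbc1d4, Maf and Icos, and had at least 1 UMI of Sostdc1, Ascl2, Padi4 or Angptl2, called the 4 genes below. Of 11355 barcodes deposited, 9356 passed quality control, 2989 of these passed the CD3 step, 2676 of those had at least 2 gate genes (the Tfh-gated cells), and 2113 were members. The other 563 Tfh-gated cells had no UMI of the 4 genes and served as comparison cells. All cells came from spleens described as holding B and T cells, from 3 BXD2-p19-/- mice, deficient in IL-23 through loss of p19 (mice 1 and 2 female, mouse 3 male), and 2 female BXD2-WT mice, with 1 RNA library per mouse. BXD2 is a recombinant inbred strain that forms germinal centres and autoantibodies spontaneously, and both genotypes carry that background. Ages, treatments and capture days are not given in the sources used here, so genotype and handling cannot be told apart. The gene that encodes p19, Il23a, had 0 UMIs in all 5 libraries, so it checks no label. Below, 5 values in a row always stand in the order p19-/- mice 1, 2 and 3, then WT mice 1 and 2.

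Tfh cells are the CD4 T cells that enter B cell follicles and deliver CD40 ligand, IL-21 and IL-4 to germinal centre B cells. The transcriptional repressor BCL6 and the receptors CXCR5 and PD-1 define them, and ASCL2, a basic helix-loop-helix transcription factor, is known to induce CXCR5. Cells that settle in the germinal centre lose the receptors for leaving the follicle (CCR7, PSGL-1, EBI2) and gain S1PR2, which holds them there. Sostdc1 encodes a secreted antagonist of BMP and WNT signals, Padi4 a peptidylarginine deiminase that converts arginine to citrulline in proteins, and Angptl2 a secreted angiopoietin-like protein.

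On the mm10 assembly (RefSeq, GRCm38.p6) all 4 are protein-coding genes: Sostdc1 lies on chr12:36314169-36318452, Ascl2 on chr7:142966822-142969264, Padi4 on chr4:140745508-140774239 and Angptl2 on chr2:33215951-33247725. The RefSeq table held promoters for 3 of them (Ascl2, Padi4 and Angptl2). They are shown because these genes were found together in the same cells and because the product of one, ASCL2, is known to bind E-boxes. Capitals mark the E-box letters CANNTG, searched on both strands, which overlap the narrower motif CAGCTG that was searched too. The sequences run 5′ to 3′ on each gene's own strand and end at the annotated gene boundary.
Ascl2, chr7:142969265-142969514, minus strand: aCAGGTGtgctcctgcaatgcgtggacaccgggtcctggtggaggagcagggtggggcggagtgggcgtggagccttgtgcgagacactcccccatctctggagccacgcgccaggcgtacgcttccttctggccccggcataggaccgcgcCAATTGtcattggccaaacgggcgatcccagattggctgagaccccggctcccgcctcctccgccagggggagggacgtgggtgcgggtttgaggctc
Padi4, chr4:140774240-140774453, minus strand: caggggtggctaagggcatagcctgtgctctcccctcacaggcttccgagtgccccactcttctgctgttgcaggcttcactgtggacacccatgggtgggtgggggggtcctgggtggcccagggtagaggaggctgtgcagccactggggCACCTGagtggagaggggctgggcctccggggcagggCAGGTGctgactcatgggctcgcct
Angptl2, chr2:33215711-33215950, plus strand: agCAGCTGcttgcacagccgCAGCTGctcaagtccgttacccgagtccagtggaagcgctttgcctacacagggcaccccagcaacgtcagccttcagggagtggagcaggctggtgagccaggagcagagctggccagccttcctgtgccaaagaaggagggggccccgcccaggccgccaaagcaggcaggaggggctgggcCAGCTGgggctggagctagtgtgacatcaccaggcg
The Ascl2 window of 250 bases held 2 CANNTG matches (CAGGTG and then CAATTG). The Padi4 window of 214 bases held 2 (CACCTG and then CAGGTG). The Angptl2 window of 240 bases held 3, all of them CAGCTG. Windows of the same lengths held CANNTG in 66.0%, 61.1% and 64.9% of 27025 mouse promoters and CAGCTG in 12.8%, 10.8% and 12.2%, so most mouse promoters held an E-box and fewer held CAGCTG. A match describes letters only and no binding was measured.

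Sostdc1 was the leading gene of the set. A Sostdc1 UMI was found in 76.3% of members, an Ascl2 UMI in 55.8%, an Angptl2 UMI in 37.0% and a Padi4 UMI in 33.6%. These shares describe how the cells were chosen. By mouse, the share with Sostdc1 ran from 74.1 to 78.9%, and its level was 2792, 2750.1, 3123, 2621 and 2429.7 plain CPM (UMIs of the gene per 1000000 UMIs, with no further scaling). Ascl2 stood at 301, 284, 316, 262 and 261 plain CPM, Padi4 at 226, 296, 239, 171 and 237 and Angptl2 at 177, 154, 131, 169 and 148. Sostdc1 was thus the most heavily counted of the 4 in every mouse, although UMI counts are not scaled by gene length, so the order is one of counts only. The same genes were nearly absent from B cells: among 4124 cells with Cd79a and no CD3 UMI, 1.02% had a Sostdc1 UMI, 0.461% Ascl2, 0.170% Angptl2 and 1.84% Padi4, at a median of 8013 UMIs per cell against 3713 in members and 3079 in comparison cells.

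The number of UMIs per cell put most members well inside the rule. The median member had 11 UMIs of the 4 genes and the highest 96. At the edge of the rule, 254 members had exactly 1 such UMI, next to the 563 comparison cells with 0. At the gate, 4.08% to 10.3% of members per mouse had only 2 gate genes. Just outside it stood 178 CD3 cells with 1 gate gene, of which 37.5 ± 12.6% (SD, n = 3 p19-/- mice) and 28.8 ± 11.5% (n = 2 WT mice) had a UMI of the 4 genes. A further 135 had no gate gene.

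The 4 genes marked overlapping rather than identical cells. Sostdc1 alone was found in 450 members, Ascl2 alone in 162, Angptl2 alone in 105 and Padi4 alone in 34, while 167 members (7.90%) had all 4. One gene was found in 751 members, 2 in 721 and 3 in 474. When every cell was thinned to 2000 UMIs, so that depth was equal, Ascl2 was found in 32.0% to 40.6% of Tfh-gated cells with Sostdc1 and in 20.7% to 33.1% of those without, and was more frequent beside Sostdc1 in each of the 5 mice. Over the 6 pairs of genes and 5 mice, 29 of 30 comparisons ran that way. The exception was Ascl2 with Angptl2 in p19-/- mouse 1 (18.4% of Ascl2 cells and 19.5% of the rest had Angptl2).

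**Figure D1:**
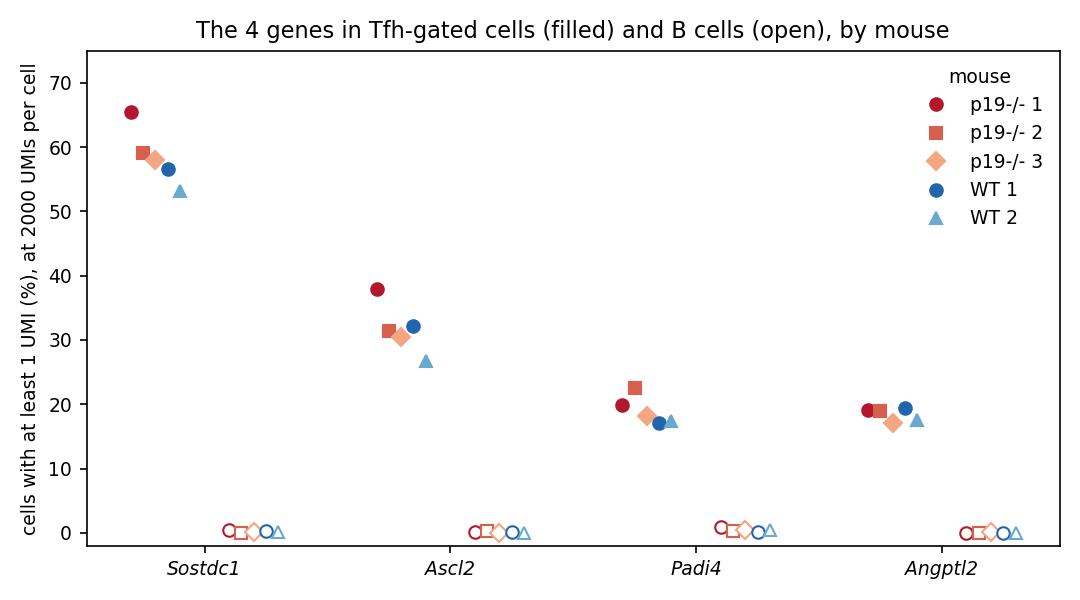
Percent of cells with at least 1 UMI of each of the 4 genes (y axis), after thinning to 2000 UMIs per cell, in all Tfh-gated cells (filled) and in B cells with Cd79a (open), 1 point per mouse. Sostdc1 was found in 53.1% to 65.5% of Tfh-gated cells and in at most 0.382% of B cells.

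Genes that the rule did not use were looked at first. Cd4 was found in 74.3% of members and 0.485% of B cells. The CD3, Cd8 and Cd79a steps largely set that contrast, so it does not check the mature Tfh label. Bcl6, which B cells of germinal centres also express, was found in 24.6% of members, 12.6% of comparison cells and 36.6% of B cells. The gate genes were used by the rule, so their shares only describe the cells, and members were also deeper than comparison cells. Pdcd1 was found in 93.4% of members, Tbc1d4 in 78.4%, Icos in 69.0%, Maf in 61.8%, Tox2 in 54.8%, Sh2d1a in 50.8%, Cxcr5 in 37.7% and Il21 in 32.0%. In comparison cells the shares were 76.6% for Pdcd1, 46.0% for Tbc1d4, 36.9% for Tox2, 30.6% for Cxcr5 and 14.9% for Il21, and Sh2d1a, the SLAM-associated adaptor SAP, was the one seen less often in members (64.1% of comparison cells) by more than 10 points. Cxcr5 and Tox2 are not specific to T cells here, since 30.6% and 32.7% of B cells carried them.

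A few facts of the libraries bear on every comparison below. Summed UMIs per mouse ran from 1289037 to 2358310 in members and from 251073 to 518492 in comparison cells, so the comparison cells set the precision. Scrublet marked between 0.408% and 2.13% of members per mouse as doublets. Across the libraries 68 barcodes occurred in more than 1 library, of which 26 were member barcodes and 3 were members in 2 libraries; these cells were kept. Replicates are mice, so p-values between genotypes measure the spread between mice. Where mouse was a block, they measure how much the difference within a mouse varied from mouse to mouse. B cell markers (13 genes) summed to 1235 to 1882 plain CPM in p19-/- members and 1288 to 1290 in WT members, and myeloid markers (12 genes) to 370.0 to 899 and 319 to 668. Among defining markers, Ncr1, Klrc1, Klrk1 and Gzmb of NK and cytotoxic cells and Pf4 and Ppbp of platelets had 0 UMIs in members. The other NK and cytotoxic genes did have UMIs there, and that list (10 genes) summed to 6.21 to 94.7 plain CPM. The platelet and stromal list (8 genes) summed to 59.8 to 88.4 plain CPM in members and 41.0 to 67.1 in comparison cells.

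Members were first set against comparison cells of the same mouse (mouse as a block, sums of UMIs per mouse, genes of the rule left out of the test). Members carried far less of a Th1-like and cytotoxic set (Ccl5, Nkg7, Gzmk, Eomes) and less of several exit and homing genes (Selplg, Il7r, Klf2, Ccr7, Gpr183). They carried more Bcl6, Il4, Cd200, S1pr2 and glycolytic enzyme transcripts. The highest fold changes upward were of Apoc4, Efnb2, Gfra4, Nrgn and Apoe. By edgeR's quasi-likelihood test with Benjamini-Hochberg adjustment at 0.05 (genes that meet this are said to pass, rise or fall below), 774 of 7798 genes passed (9.93%), 354 of them higher in members (4.54%) and 420 lower (5.39%). Values ran the same way in all 5 mice, higher in members, in 9.17% of genes, and lower in 9.73%. Members were deeper than comparison cells, and after every cell was thinned to 2000 UMIs 519 of 5260 genes passed, 402 of them the same genes. DESeq2 called 434.

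Among transcription factors linked to Tfh cells, 5 of 15 were higher and 1 lower (median log2 fold change 0.067, against -0.017 over all genes). Bcl6, the repressor that defines the lineage, stood at 82.3, 82.1, 81.4, 74.8 and 83.0 CPM (from here on scaled by edgeR's normalization factors, unless called plain) in members of the 5 mice and at 47.2, 32.8, 38.2, 61.3 and 43.5 CPM in comparison cells. It was higher in members of each mouse, by a log2 fold change of 0.83 ± 0.16 (SE; edgeR adjusted p = 0.00225). Cebpa, a C/EBP family factor better known from myeloid cells, was at 126 to 171 CPM in members and 28.7 to 104 CPM in comparison cells and rose by 1.32 on the log2 scale (edgeR adjusted p = 3.62e-05). Hif1a, the hypoxia-inducible factor, rose by 0.68, Nfatc1, a calcium-regulated factor, by 0.50, and Pou2af1, the OCT coactivator, by 0.58. Ikzf3, the Aiolos zinc-finger factor, was the one that fell (by 0.70).

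Genes that oppose the Tfh fate or mark its early, stem-like state were lower or did not pass. Of 10 antagonists tested, 4 were lower and none higher: Prdm1 (-2.07), which encodes the BCL6 antagonist BLIMP-1, Runx3 (-1.58), Klf2 (-1.42) and Tbx21 (-1.25), with a median of -0.39 over the list. Prdm1 was at 5.46 to 18.0 CPM in members and 29.6 to 52.2 CPM in comparison cells, with no overlap between the subsets. Of 9 early and stemness factors, Foxo1 (-0.53) and Gimap6 (-0.34) were lower and none was higher; Tcf7, encoding TCF-1, was at 329 to 458 CPM in members and 268 to 397 CPM in comparison cells (log2 fold change 0.21, edgeR adjusted p = 0.127).

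Most genes of exit from the follicle and of naive or memory homing were lower. Of 9 tested, 6 were lower in members, of which 5 are named here, and none higher, with a median of -1.44. Selplg, encoding the selectin ligand PSGL-1, was at 49.6, 39.9, 41.9, 56.8 and 47.0 CPM in members against 220.2, 242, 217, 203 and 160.0 CPM in comparison cells (log2 fold change -2.11 ± 0.13, edgeR adjusted p = 9.14e-09). Il7r, the IL-7 receptor chain, was at 74.4, 157, 90.6, 49.1 and 46.6 CPM against 177, 324, 231, 173 and 162 CPM (-1.44 ± 0.12). In both genes every member value lay below the comparison value of its own mouse, and p19-/- mouse 2 had the highest Il7r in either subset. Ccr7, the receptor for T zone chemokines, fell by 2.04, Gpr183, which encodes EBI2, by 1.55, and Klf2, the factor that drives exit receptors, by 1.42. Each was lower in members of all 5 mice.

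Germinal centre surface genes split. Of 17 tested, 7 were higher and 3 lower (median 0.080). S1pr2, which retains cells in the germinal centre, was at 123, 109.7, 106, 86.8 and 87.2 CPM in members and 23.6, 32.8, 36.1, 67.6 and 25.7 CPM in comparison cells (log2 fold change 1.38 ± 0.21, edgeR adjusted p = 0.000201). Cd200, an inhibitory ligand and Tfh surface marker, was at 309, 308, 236, 269.7 and 243 against 177, 139, 80.3, 131 and 90.9 CPM (1.19 ± 0.11). Fam43a (1.54), Rgs16 (1.08), a regulator of G protein signals, Btla (0.93), an inhibitory receptor for HVEM, Gpm6b (0.74) and Nt5e (0.42), which encodes the ectonucleotidase CD73, were also higher. Rgs1 (-1.77), Slamf1 (-0.89) and Tigit (-0.54) were lower.

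Of 12 helper cytokine and contact genes tested, 4 were higher and 2 lower. Il4, the switch factor for IgG1 and IgE, was at 165, 117, 119, 104 and 129 CPM in members and 47.2, 45.1, 30.1, 40.2 and 33.6 CPM in comparison cells, and no member value overlapped a comparison value. Its log2 fold change was 1.71 ± 0.15 (edgeR adjusted p = 5.17e-07), and 27.8% of members had an Il4 UMI against 9.77% of comparison cells and 0.0485% of B cells. Cd40lg, the CD40 ligand, rose by 0.58, Tnfsf8, the CD30 ligand, by 1.02 and Il6ra, the IL-6 receptor chain, by 0.65. Il10 and Fasl were lower (-1.30 and -1.34). Among checkpoint and costimulation genes 5 of 10 were lower and none higher, among them Tnfrsf9, which encodes 4-1BB, Tnfrsf4 (-0.49), which encodes OX40, and Tnfrsf18 (-0.84), which encodes GITR. Genes of the T cell receptor response gave 1 of 15 higher (Jund) and 3 lower (Junb, Nfkbia and Nr4a2). Over all genes tested 4.54% were higher and 5.39% lower, so 1 higher gene of 15 is near the share of all genes.

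Genes of Th1 and cytotoxic cells stood far lower in members: 8 of 9 tested were lower and none higher (median -3.25). Their summed level (10 genes) was 185 to 285 plain CPM in members and 739 to 5933 in comparison cells. Ccl5, the chemokine RANTES, was at 3.63, 0.767, 9.26, 2.18 and 1.69 CPM in members and at 4785, 3707, 1203, 364 and 2517 CPM in comparison cells, a log2 fold change of -9.22 ± 0.27 (edgeR adjusted p = 9.56e-14). Few cells held it: 12, 10, 13, 10 and 16 of the 74, 57, 141, 162 and 129 comparison cells had a Ccl5 UMI, against 3, 1, 8, 4 and 1 members. Those 61 comparison cells averaged 17386 Ccl5 plain CPM. Of the same 61, 65.6% had Nkg7, a cytotoxic granule protein gene, 49.2% Gzmk, encoding granzyme K, and 37.7% Eomes, a T-box factor, while 0 had Il4.

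In the 502 comparison cells with no Ccl5 UMI, Selplg was at 195, 237, 188, 178 and 135 plain CPM, above the 40.3 to 56.6 of members in each mouse. Il4 was at 54.4, 55.4, 31.7, 40.3 and 38.2 plain CPM in these cells, below the 104 to 163 of members, and Bcl6 at 54.4, 25.2, 40.2, 59.4 and 49.5, below 74.5 to 83.1. These splits were made after the values were seen and carry no test. For NK and cytotoxic markers as a list (10 genes), the summed level was 6.21 to 94.7 plain CPM in members and 135 to 1071 in comparison cells over all mice. What those cells contributed to the other calls was not tested.

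Glycolytic enzymes moved together. All 14 tested had positive fold changes and 10 were higher by the test (median 0.52). Gapdh was at 1004, 1021, 842, 685 and 590.2 CPM in members and 641, 632, 699, 600.3 and 441 CPM in comparison cells, higher in members of each mouse (0.43 ± 0.075, edgeR adjusted p = 0.00068). Tpi1 (0.76), Pgam1 (0.75), Pfkp (0.68), Pfkl (0.68), Aldoa (0.63), Pkm (0.55), Hk1 (0.54), Pgk1 (0.49) and Ldha (0.30) were the others. After thinning 7 of 13 passed, and 7 of 14 passed without the block or without WT mouse 2. Oxidative phosphorylation genes gave none of 15 past the threshold, as did the 15 S phase genes and the 13 heat shock chaperones, and of 12 G2 and M phase genes only Nusap1 passed, a call that was lost without p19-/- mouse 1, without p19-/- mouse 2 or without either WT mouse.

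Several of the strongest upward genes are not classical T cell genes. Apoe, encoding the lipid carrier apolipoprotein E, was at 536, 502, 829, 618 and 971 CPM in members and 39.3, 131, 62.3, 44.4 and 136 CPM in comparison cells (log2 fold change 3.15 ± 0.17, edgeR adjusted p = 2.77e-09). Its UMIs were found in 23.2% of members, 4.26% of comparison cells and 53.2% of B cells, at 723, 79.6 and 359 plain CPM, so fewer members than B cells held Apoe, but at a higher level over all cells. Apoc4, an apolipoprotein gene that lies beside Apoe on chromosome 7 (chr7:19678084-19681460 and chr7:19696244-19701310), was at 42.3 to 133 CPM in members and 0 to 14.1 CPM in comparison cells (3.86 ± 0.29), and no value overlapped. Of 7 myeloid markers tested none passed, 3 with positive and 4 with negative fold changes. The summed level of that list (12 genes) was 588, 370, 899, 668 and 319 plain CPM in members. In comparison cells it was 530, 1131, 374, 1659 and 1326, so p19-/- mice 1 and 3 were higher in members and the others lower. The part of myeloid RNA in the Apoe and Apoc4 values was not tested.

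Gfra4, a GDNF family receptor, had UMIs in 14.9% of members, 1.95% of comparison cells and none of the 4124 B cells (which allows a share of up to 0.0727%). Its level was 78.6, 72.1, 44.8, 72.1 and 83.8 CPM in members and 19.7, 8.20, 2.01, 2.11 and 7.90 CPM in comparison cells (3.36 ± 0.29). Efnb2, the ligand ephrin-B2, was at 26.6, 18.4, 21.0, 23.5 and 20.3 against 0, 0, 6.02, 2.11 and 0 CPM (3.37 ± 0.51), and Nrgn, the calmodulin-binding protein neurogranin, at 19.2 to 56.2 CPM in members and 0 to 8.03 CPM in comparison cells. Slc1a4 (2.68), a neutral amino acid transporter, Plagl1 (2.55), a zinc-finger factor, Ppic (2.84), a cyclophilin, Ccdc80 (2.35) and Snn (2.28) were also higher in all 5 mice. Stfa3 (3.01), a stefin, belongs to a family of near-identical genes and its reads may be shared between copies. Besides the Th1 genes, Cd7 (-3.67), Cish (-2.68), a STAT5-induced suppressor of cytokine signalling, Ppp3ca (-2.67), the calcineurin catalytic chain, and Rasgrp2 (-2.32) were lower in all 5. The chemokines Ccl4 (-3.23) and Ccl3 (-2.80) fell as well.

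**Figure D2:**
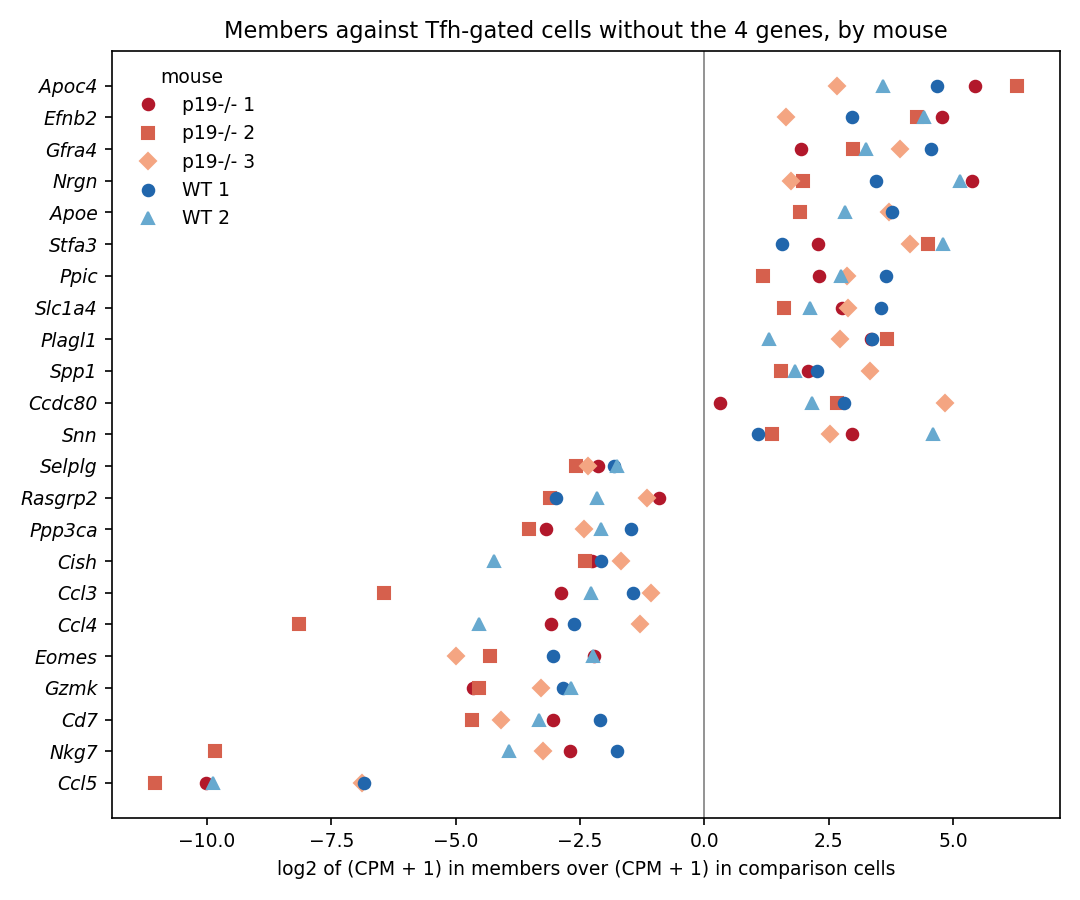
Log2 ratio of CPM plus 1 in members over comparison cells (x axis) for 23 genes named by a fixed rule (y axis), 1 point per mouse. Each gene had all 5 mice on one side of 0, and Ccl5 lay farthest out, with p19-/- mouse 2 lowest.

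The regulatory T cell and Th17 markers that passed were lower in members, but the sums of these lists were not lower in every mouse. The regulatory list (12 genes) summed to 1129 to 1306 plain CPM in members and 1183 to 1786 in comparison cells. In p19-/- mouse 2 it was higher in members (1234 against 1183). The Th17 list (10 genes) summed to 98.5 to 161 and 100 to 259 plain CPM, with p19-/- mouse 3 and WT mouse 2 higher in members. Of 6 regulatory T cell genes tested (Foxp3 was excluded by the rule), Tnfrsf9, Ikzf2 (-0.49) and Il10 were lower and none higher. The Th17 list gave Rora (-0.59) lower out of 3 tested, and Il17f and Il22 had 0 UMIs in members and in comparison cells alike. Il17a went the other way, with UMIs in members and 0 in the comparison cells, which were fewer. Type I interferon response genes gave 4 of 11 lower (Bst2, Ifi47, Ifi203, Stat2) and none higher. Of 16 interferon gamma response genes, Socs1 (0.93) was higher, and B2m (-0.45), Gbp7 (-1.04) and Gbp4 (-0.66), a guanylate-binding protein with close copies, were lower. With 4.54% of all genes higher and 5.39% lower, 1 higher gene of 16 is near the share of all genes. Of 6 B cell markers tested, Igkc was lower (-0.79) and none was higher, with the comparison cells of p19-/- mouse 2 far above the rest (1325 CPM, against 279 to 492 in those of the other mice).

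The same genes were then followed over the number of the 4 genes found in a cell, at 2000 UMIs per cell. These values are a description, since the classes come from the rule. Selplg had medians over mice of 159.7 plain CPM in cells with none of the 4, 59.1 with 1, 27.4 with 2 and 33.3 with 3 or 4. Its lowest mouse without the 4 genes (136) lay above the highest mouse of every other class. Klf2 had medians of 209, 126, 54.8 and 33.3 plain CPM, and Il7r with medians of 137, 103, 48.1 and 20.5. Cd200 rose from a median of 125.0 to 218 (the value with 1 gene), then 287 and 312. Bcl6 had medians of 37.8, 76.9, 105 and 122, but in WT mouse 1 the class with 3 or 4 genes was at 57.4, below its own class with 2 (105). The class with 3 or 4 held only 45 to 73 cells per mouse, so its values rest on few UMIs.

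**Figure D3:**
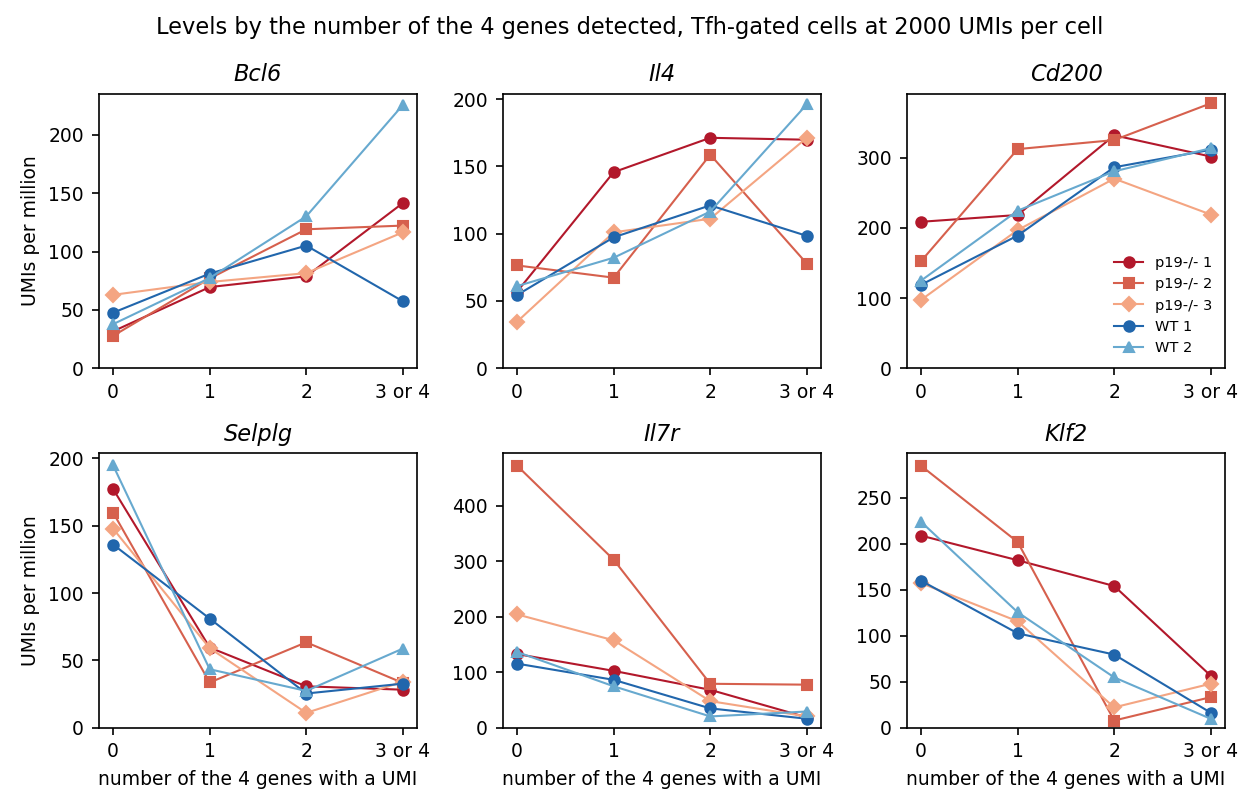
plain CPM (y axis) of 6 genes in Tfh-gated cells thinned to 2000 UMIs, by the number of the 4 genes with a UMI (x axis), 1 line per mouse. Selplg, Il7r and Klf2 ran downward and Bcl6, Il4 and Cd200 upward from 0 to 2 genes in most mice, while the class with 3 or 4 genes, 45 to 73 cells per mouse, scattered.

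Members also differed among themselves. With a Sostdc1 UMI there were 1613 members (median 3697 UMIs per cell) and without one 500 (median 3822). By the rule, every member without Sostdc1 had a UMI of Ascl2, Padi4 or Angptl2, while 450 members with Sostdc1 had none of these. The split thus differs in those genes as well as in Sostdc1, and the parts of each were not told apart. Sostdc1-detected members had more Cd200, Btla, Tnfsf8 and Il4 and less Il10, Myb and Selplg, and cell cycle genes were higher in members without Sostdc1. By edgeR's quasi-likelihood test with mouse as a block, 231 of 7506 genes passed (3.08%), 114 higher (1.52%) and 117 lower (1.56%) in Sostdc1-detected members. In 6.47% of genes the value was higher, and in 6.1% lower, with Sostdc1 in all 5 mice. This count was sensitive: it was 59 by DESeq2, 53 without the block, 26 of 4031 genes at 2000 UMIs per cell, and 92 without p19-/- mouse 3, 72 without WT mouse 1 and 153 without WT mouse 2, while no filter on low counts gave 434.

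Some surface and helper genes were higher. Cd200 was at 348, 351, 272, 287 and 260.0 CPM with Sostdc1 and 207, 191, 139, 244 and 211 CPM without (log2 fold change 0.58 ± 0.10, edgeR adjusted p = 0.00344). Btla (0.65 ± 0.12), Tnfsf8 (0.40 ± 0.064) and Il4 (0.55 ± 0.14) were higher in all 5 mice too, and so was Bhlhe40 (0.71), a basic helix-loop-helix repressor and the 1 antagonist of the Tfh fate that passed. In the germinal centre surface list 4 of 17 were higher (Cd200, Btla, Gpm6b, Fam43a) and Rgs1 was lower. Selplg (-1.12) and Gpr183 (-0.98) were the 2 of 8 exit and homing genes that passed, both lower. Of 15 Tfh transcription factors only Ikzf3 passed (-0.84), of the stemness factors only Lef1 (-0.49), and no glycolysis, heat shock or oxidative phosphorylation gene did.

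Il10, an anti-inflammatory cytokine, was at 6.49, 16.4, 8.41, 0.779 and 6.53 CPM with Sostdc1 and 15.3, 29.1, 94.2, 19.3 and 9.39 CPM without, lower in every mouse (-2.12 ± 0.40, edgeR adjusted p = 0.00594). Myb, a factor of proliferating and memory T cells, was at 2.43, 6.15, 3.23, 8.57 and 4.16 against 56.2, 19.4, 27.8, 23.2 and 18.8 CPM (-2.51 ± 0.37). Irf8 (-1.67), an interferon regulatory factor, Tesc (-1.19), Tmem154 (-1.18), Abi3 and Phgdh (-1.16), the first enzyme of serine synthesis, were also lower. On the other side, Xcl1, the chemokine lymphotactin that attracts XCR1-bearing dendritic cells, was at 39.0, 26.7, 22.6, 14.0 and 88.5 CPM with Sostdc1 and 0, 9.71, 0, 7.74 and 23.5 CPM without (2.16 ± 0.35), and WT mouse 2 was highest in both. S100a5 (2.55), a calcium-binding protein, Ispd (2.11), an enzyme of dystroglycan glycosylation, Dgki (1.51), a diacylglycerol kinase, Cilp2 (1.75), Scml4 (1.33), Tmem176a (1.34), Efnb2 (1.44), Slc1a4 (1.31) and the multicopy Stfa3 (4.17) were higher in all 5 mice.

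Some myeloid markers were higher with Sostdc1. Fcer1g, a signalling adaptor, was at 13.0, 23.6, 45.3, 19.5 and 4.16 CPM with Sostdc1 and 2.56, 22.7, 0, 3.87 and 0 CPM without, close together in p19-/- mouse 2. Tyrobp, its partner adaptor, rose by 2.34 (higher in 4 of 5 mice) and Cst3, cystatin C, by 0.90, while Acod1, an itaconate-forming enzyme best known from macrophages, rose by 1.44 (edgeR adjusted p = 0.0465). In all, 3 of the 5 myeloid markers tested passed. Over the whole list of 12, the summed level was 346 to 1093 plain CPM with Sostdc1 and 249 to 448 without, over all mice, but in p19-/- mouse 2 it was lower with Sostdc1 (361 against 399). The part of myeloid RNA in these results was not tested.

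Cell cycle genes ran the other way. Of 13 G2 and M phase genes tested all were lower with Sostdc1 and 9 passed (median -1.21), and of 14 S phase genes all were lower and 5 passed (median -0.58). Mki67, the proliferation marker, was at 85.2, 40.0, 60.8, 84.1 and 46.9 CPM with Sostdc1 and 97.2, 9.71, 221, 176 and 95.4 CPM without, so p19-/- mouse 2 was reversed. Top2a (-0.94), which encodes a DNA topoisomerase, was reversed there as well. Incenp (-1.15), Kpna2 (-1.12) and the multicopy histone gene Hist1h1d (-1.35) were among the named genes that fell. None of the G2 and M phase genes passed without p19-/- mouse 3, without the block, or by DESeq2, and 2 of 12 passed without WT mouse 1. At 2000 UMIs per cell only 1 of them had counts enough to be tested, and it did not pass. A Mki67 or Top2a UMI was found in 12.7% to 14.9% of members and 5.41% to 15.6% of comparison cells per mouse.

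**Figure D4:**
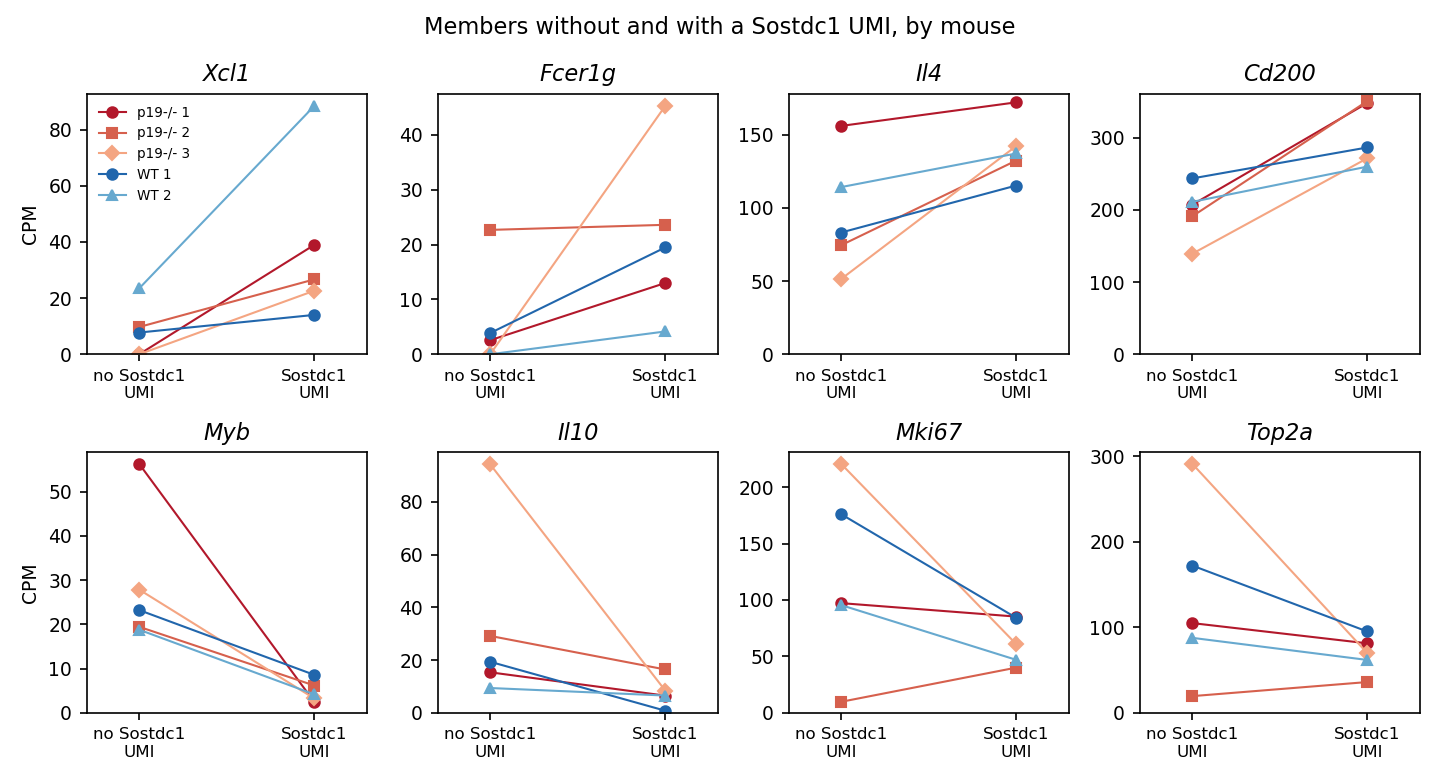
CPM (y axis) of 8 genes in members without and with a Sostdc1 UMI (x axis), 1 line per mouse. Xcl1, Fcer1g, Il4 and Cd200 rose with Sostdc1 and Myb and Il10 fell in all 5 mice, while Mki67 and Top2a fell in 4 and rose in p19-/- mouse 2.

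Next, the study's genotypes were compared within members, which asks whether loss of IL-23 p19 changed these helper cells. The share of Tfh-gated cells that were members was 84.1%, 81.1%, 77.4%, 76.1% and 78.8%. The mean was 80.9 ± 3.33% (SD, n = 3) in p19-/- mice and 77.4 ± 1.89% (n = 2) in WT mice, a difference of 3.42 percentage points, with p19-/- mouse 3 below WT mouse 2 (two-sided exact permutation test, p = 0.4; the smallest p that 3 against 2 mice allow is 0.2). At 2000 UMIs per cell the shares were 76.1 ± 4.91% and 71.7 ± 2.22%. Members made up 23.7 ± 2.81% of all cells passing quality control in p19-/- mice and 23.4 ± 6.93% in WT mice.

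The 4 genes themselves were compared in all Tfh-gated cells, which were not chosen by them. Sostdc1 was at 2451, 2275 and 2529 CPM in p19-/- mice and 2079 and 1992 CPM in WT mice, so the 3 lay above the 2, as 14.2% of all genes tested did there. The log2 fold change of 0.25 ± 0.083 did not pass (edgeR adjusted p = 0.314). Ascl2 was at 265, 235 and 256 CPM against 208 and 214 CPM (0.26 ± 0.10, edgeR adjusted p = 0.39). Padi4 (0.35 ± 0.16) and Angptl2 (0.013 ± 0.14) overlapped between genotypes. In that comparison 55 of 9842 genes passed (0.559%; 0.356% higher in p19-/- mice and 0.203% lower), 10 without p19-/- mouse 1, 27 without WT mouse 1 and 23 without WT mouse 2. None of the 4 genes was among them, nor was a gate gene: Il21 was at 150.1, 141 and 140.3 CPM against 88.0 and 121 CPM (0.45 ± 0.13, edgeR adjusted p = 0.249) and Maf at 377, 352 and 363 against 288 and 286 CPM (0.34 ± 0.089, edgeR adjusted p = 0.191).

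Markers of other cells were among the genes that passed in all Tfh-gated cells. Of 10 B cell markers tested 4 were higher in p19-/- mice, namely the MHC class II genes H2-Aa (1.77), H2-Ab1 (1.77) and H2-Eb1 (1.94) and the invariant chain gene Cd74 (0.81). H2-Ab1 was at 59.6, 91.8 and 64.7 CPM in p19-/- mice and 22.0 and 19.8 CPM in WT mice. The 2 erythroid markers tested, the haemoglobin genes Hbb-bs (-3.26) and Hba-a1 (-2.94), were lower, and both have near-identical copies. Hbb-bs was at 8.89, 0.642 and 0.784 CPM against 22.4 and 42.1 CPM. Within members none of these 6 genes passed (edgeR adjusted p from 0.0669 for Hbb-bs to 0.568 for Cd74), and erythroid markers (7 genes) summed to 4.84 to 24.4 plain CPM in p19-/- members and 43.5 to 88.6 in WT members. Their part in the genotype results was not tested.

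Within members, p19-/- cells had more Spp1, more heat shock chaperone RNA and more Lag3 and Ctla4, and less Stab2, Cirbp, Hint1 and Cd52. By edgeR's quasi-likelihood test 36 of 9407 genes passed (0.383%), 25 higher (0.266%) and 11 lower (0.117%) in p19-/- members. The 3 p19-/- values lay above both WT values in 13.3% of genes, and below both in 13.1%. The count depended on single mice: it was 12 without p19-/- mouse 1, 59 without p19-/- mouse 2, 21 without WT mouse 1 and 17 without WT mouse 2, and 52 without the male, p19-/- mouse 3. Thinning gave 69 and no filter on low counts 270. Helper genes were not among those that passed. Il4 was at 166, 117 and 119.9 CPM in p19-/- members and 105 and 129 CPM in WT members, and Cxcr5 at 146, 169 and 142 against 139 and 151 CPM, both overlapping between genotypes. The log2 fold changes were 0.20 ± 0.16 for Il4, 0.061 ± 0.11 for Cxcr5 and 0.054 ± 0.12 for Bcl6.

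Spp1, which encodes the secreted phosphoprotein osteopontin (chr5:104435111-104441053), gave the highest fold change. It had 1023, 575 and 1393 UMIs in p19-/- members and 7 and 6 in WT members, or 623, 441 and 684 CPM against 3.83 and 2.55 CPM (log2 fold change 7.52 ± 0.30, edgeR adjusted p = 2.96e-07). All 3 p19-/- mice lay far above both WT mice. Spp1 UMIs were found in 22.1, 23.3 and 20.3% of p19-/- members and 0.194 and 0.626% of WT members. In comparison cells the shares were 14.9, 5.26 and 3.55% in p19-/- mice, with 0 of 162 and 0 of 129 cells in WT mice. With cells pooled over mice, the level in p19-/- comparison cells was 34.7-fold higher against a floor of 3 counts for the WT group. The 95% interval of the counts began at 27.8-fold. Of the 4124 B cells, 9 had a Spp1 UMI (0.218%). Within p19-/- mice Spp1 was also higher in members than in comparison cells, and its call in that comparison (log2 fold change 2.39, edgeR adjusted p = 5.62e-07) was lost without the mouse block (edgeR adjusted p = 0.239).

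Stab2, a scavenger receptor gene of sinusoidal endothelium (chr10:86841194-87008038), was the mirror image. It had 0, 1 and 2 UMIs in p19-/- members and 146 and 225 in WT members, a ratio of 148 (95% interval of the counts 50.4 to 723) and the lowest fold change (edgeR adjusted p = 1.16e-06). The difference was not limited to members, since Stab2 was found in 21.9 and 32.9% of WT B cells and in none of the 599, 349 and 1178 B cells of the p19-/- mice. Stab2 lies on the same chromosome as Il23a (chr10:128296140-128298084), and 6 of 438 tested chromosome 10 genes passed against 29 of 8696 on other chromosomes. The 6 were Stab2, Rassf3, Cirbp, Ipcef1, P4ha1 and Ptges3. Among genes on other chromosomes, Spp1, Gbp8 (chr5:105012513-105053609) and Gbp9 (chr5:105076464-105110357) lie near each other on chromosome 5. The part of gene position in these calls was not tested. Hspb1, a small heat shock protein, had 39, 17 and 78 UMIs in p19-/- members and 1 and 1 in WT members, a ratio of 55.9 (95% interval 15.2 to 466).

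Heat shock chaperones moved as a group. Of 14 tested, 13 had positive fold changes and 7 were higher in p19-/- members (median 1.04, against -0.00083 over all genes). Hspa8, the constitutive HSC70 chaperone, which has processed copies elsewhere in the genome, was at 2825, 2143 and 2486 CPM in p19-/- members and 962 and 1345 CPM in WT members (1.11 ± 0.15, edgeR adjusted p = 0.00838). Hsp90aa1, an HSP90 gene, was at 1030.1, 551 and 977 CPM against 324 and 375 CPM (1.29 ± 0.22), with p19-/- mouse 2 lowest of the 3. Hsph1 (1.78), an HSP110, and the cochaperones Ahsa2 (1.75), Stip1 (1.25) and Chordc1 (1.10) rose as well, with Hspb1 as the remaining gene. The number that passed was 3 without p19-/- mouse 1, 4 without either WT mouse and 12 without p19-/- mouse 2. The same genes differed in B cells: Hspa8 was at 2776, 2451 and 2503 plain CPM in p19-/- B cells and 1274 and 1601 in WT B cells, and Hsph1 at 153, 102 and 178 against 55.5 and 66.7. Handling of the cells cannot be told apart from genotype here.

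Checkpoint genes gave 2 of 11 higher. Lag3, an inhibitory receptor for MHC class II, was at 381, 368 and 378 CPM in p19-/- members and 224 and 238 CPM in WT members (0.70 ± 0.095, edgeR adjusted p = 0.00838). Ctla4, the inhibitory receptor for CD80 and CD86, was at 331, 339 and 313 against 208 and 211 CPM (0.64 ± 0.10, edgeR adjusted p = 0.0142). Spread within each genotype was small in both genes and the groups did not overlap. Socs3, a feedback inhibitor of STAT3 signals, was at 88.3, 56.8 and 73.7 against 16.4 and 28.4 CPM (1.68 ± 0.24, edgeR adjusted p = 0.0102). Lman2l, a cargo receptor of the secretory pathway, was higher (1.61).

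The guanylate-binding protein genes Gbp8 and Gbp9 went in opposite directions. Gbp8 was at 35.3, 46.8 and 35.9 CPM in p19-/- members and 1.64 and 3.82 CPM in WT members, and Gbp9 at 27.4, 40.7 and 25.1 against 63.5 and 79.4 CPM. These genes have near-identical copies, between which the counting may have divided reads, so both values are uncertain. No other gene of the 16 interferon gamma response genes tested passed, and of 14 type I interferon genes none did. Cd14, a myeloid marker, was higher (2.78 ± 0.51, edgeR adjusted p = 0.0491), at 44.4, 12.3 and 26.5 against 4.38 and 3.82 CPM. All 12 myeloid markers had positive fold changes and 1 passed, and the ranges of their summed level overlapped between genotypes as given above. Their part in the result was not tested.

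Cirbp, the cold-inducible RNA-binding protein gene, was at 87.7, 92.9 and 81.5 CPM in p19-/- members and 160.4 and 130.3 CPM in WT members (-0.74 ± 0.12, edgeR adjusted p = 0.0274). Cd52, a small surface glycoprotein of lymphocytes, was at 2009.6, 1858 and 2016 against 2659.9 and 2881 CPM (-0.50 ± 0.082). Hint1 (-0.67), a nucleotide hydrolase, Mpg (-1.32), a DNA glycosylase, Ces2c (-1.08), a carboxylesterase with close relatives, and Rassf3 (-1.56) were also lower. Glycolysis genes were positive in all 15 tested with none passing (median 0.20; Gapdh 0.59, edgeR adjusted p = 0.0639). S phase genes were negative in all 15 (in 4 of 11 at 2000 UMIs per cell) and G2 and M phase genes in 14 of 15, with none passing. None of the Tfh transcription factors, antagonists, exit and homing, germinal centre surface, helper or T cell receptor response genes passed either.

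**Figure D5:**
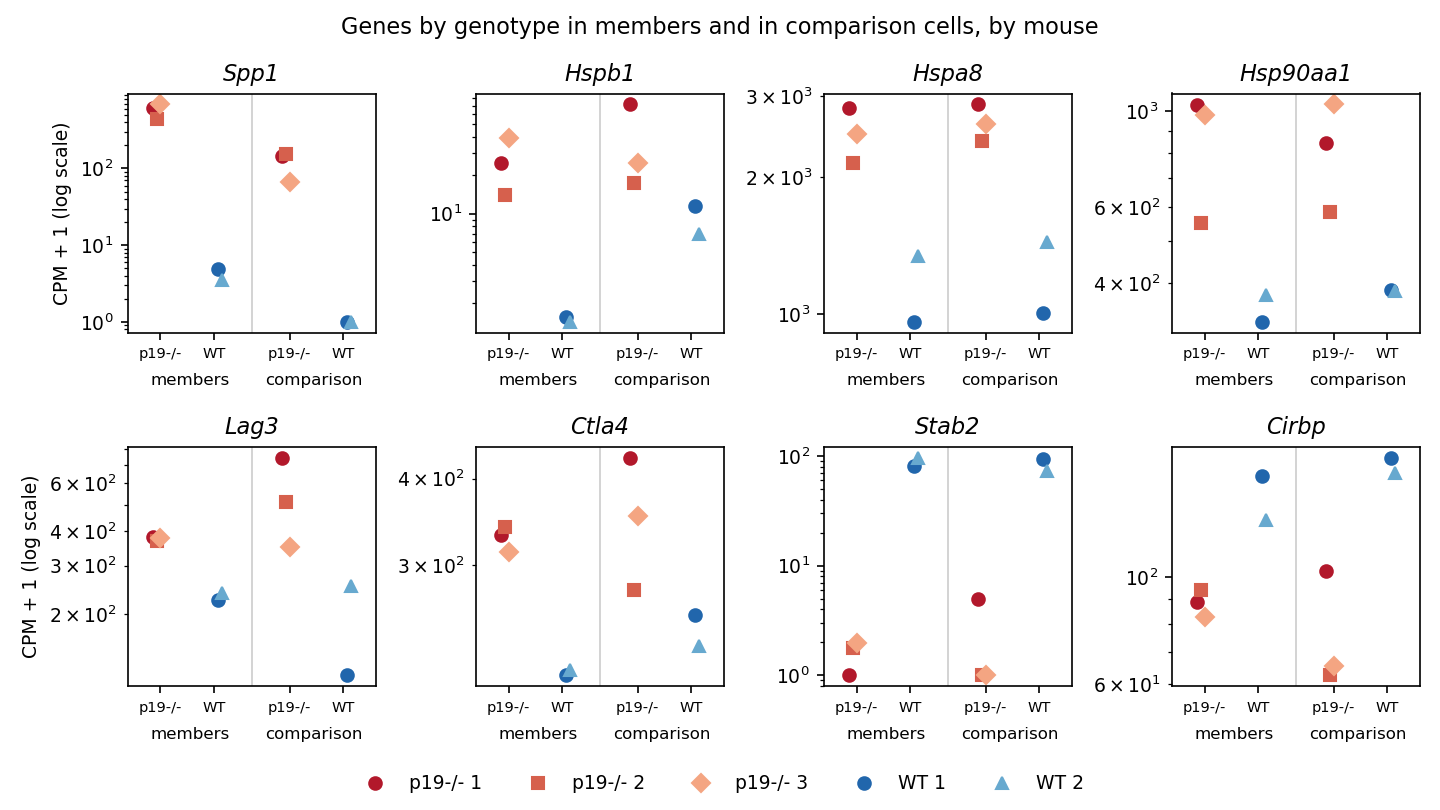
CPM plus 1 on a log scale (y axis) of 8 genes by genotype in members (left of each panel) and comparison cells (right), 1 point per mouse. Spp1, Hspa8 and Hsp90aa1 were higher and Stab2 and Cirbp lower in all 3 p19-/- mice in both subsets of cells.

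Whether the genotype difference was particular to members was tested directly, as the interaction of subset and genotype with mouse as a block. None of 7798 genes passed in edgeR (0.0% higher, 0.0% lower), 284 had an unadjusted p under 0.05, and DESeq2 called 0. Within the comparison cells alone 4 of 6478 genes passed (0.0617%; 0.0309% higher and 0.0309% lower), against 9 by DESeq2 or without p19-/- mouse 2 and 7 without p19-/- mouse 3 or without WT mouse 1. Spp1 (37, 37 and 33 UMIs in p19-/- mice, 0 in WT mice) and Hspa8 (1.10) were higher, and Stab2 and Cst3 were lower. Lag3 in comparison cells was at 742, 509.5 and 349.8 CPM in p19-/- mice and 118 and 252 CPM in WT mice, and Ctla4 at 428, 275 and 352 against 254 and 228 CPM, the same direction as in members though neither passed there (edgeR adjusted p = 0.216 and 0.654). Cst3, cystatin C, had the lowest interaction p: it was at 329.6, 439.7 and 279 CPM in p19-/- and 1700.0 and 1289 CPM in WT comparison cells, but at 286, 226 and 611 CPM in p19-/- and 442 and 278 CPM in WT members (interaction 2.15 ± 0.35, edgeR adjusted p = 0.0757). Myeloid markers summed to 374 to 1131 plain CPM in p19-/- and 1326 to 1659 in WT comparison cells, and their part in the Cst3 values was not tested.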

How the data were processed

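The authors deposited 1 matrix of raw UMI counts per RNA library (5 libraries, 10x 5′ kit, 31053 features, 69958493 UMIs in all), made with Cell Ranger 3.0.2 and STAR on mm10 per the submitters' processing notes, and B cell receptor contig tables per library, used here only to mark barcodes. Totals ran from 7712457 to 18093053 UMIs per library. Intervals and floors cover counting error only.

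UMIs were summed per mouse and subset. edgeR 4.0.16 (R 4.3.3; filterByExpr, TMM, quasi-likelihood fit and test) was the main test, with mouse as a block where both subsets came from the same mouse, p-values adjusted over all genes tested and a threshold of 0.05. Genes of the rule were left out of the tests between subsets. Shares were compared over mice by exact permutation. Scrublet (scanpy 1.11.5) scored doublets; its automatic threshold marked 28 cells, so the highest scores up to the expected number per library (156 cells in all) were marked and tried as an alternative. The tests were also run on simulated counts, drawn with the same mean share of each gene in every mouse. That setting differs from the real mice, and no result here rests on it. Alternatives were DESeq2 1.42.0 and its size factors, no filter, thinning, stricter gates, the replicate block and leaving out each mouse. Leaving out barcodes with a B cell receptor contig was chosen after seeing the data.

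Genes named are those that passed with a mean of at least 10 CPM and the same direction in all 5 mice, or no overlap between genotypes, up to 12 per direction by fold change, plus genes of the rule and of the lists. Immunoglobulin, T cell receptor, sex-linked marker, mitochondrial and ribosomal genes and unnamed models were not named, and a few other genes are not reported here. The members and lists were chosen with earlier results of these data known.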

Additional observations from a re-analysis of the deposited data

Results flagged for a closer look

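In a group of 5 mice, chance marks about 1 in 20 groups in this way, so each of the first 3 may be such a case. The 24 named genes of members against comparison cells and the 24 of the Sostdc1 split were screened. Ratios were taken on CPM plus 1, so a level near 0 CPM on 1 side can make a ratio extreme. The log2 ratio of Nkg7 in members over comparison cells was -9.84 in p19-/- mouse 2, below the -3.92 to -1.75 of the other mice. The log2 ratio of Cish in the same comparison was -4.23 in WT mouse 2, below the -2.41 to -1.68 of the others. The log2 ratio of Tmem176a in members with over members without a Sostdc1 UMI was 5.38 in p19-/- mouse 1, above the 0.6 to 1.59 of the others.

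The B cell receptor libraries, which entered no comparison above, held a productive contig for 10.8%, 7.35% and 2.90% of members of the p19-/- mice and 2.71% and 1.46% of those of the WT mice. The means were 7% (SD 3.95, n = 3) and 2.09% (SD 0.885, n = 2), and p19-/- mouse 3 was nearly level with WT mouse 1 (exact permutation test, p = 0.2, the smallest it can give). The shares in comparison cells were 4.52% and 2.32%, and in B cells 92.8% and 93.7%.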

How the results depend on the processing

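The difference in member share kept its direction in all settings tried (1.82 to 5.14 percentage points with a mouse left out). For members against comparison cells the count of 774 genes became 434 by DESeq2 and 559 with no replicate block, and 584 to 676 with a mouse left out, and of the 24 named genes 9 could be tested in every refit and 8 of these always passed. For the Sostdc1 split the count of 231 became 59 by DESeq2, 434 with no filter, 26 at 2000 UMIs per cell, 53 with no replicate block and 72 to 266 with a mouse left out; 3 of its 24 named genes could be tested in every refit and 1 always passed. For genotype within members the count of 36 became 270 with no filter, 69 at 2000 UMIs and 12 to 59 with a mouse left out; all 20 named genes could be tested in every refit and 6 always passed. For the interaction the count of 0 became 22 with no filter, 2 without barcodes holding a receptor contig, 1 at 2000 UMIs, 1 with at least 2 UMIs of the 4 genes, 2 with at least 3 gate genes and 0 to 4 with a mouse left out. Within comparison cells the count of 4 became 9 by DESeq2 and 3 to 9 with a mouse left out, and in all Tfh-gated cells 55 became 10 to 74. The cause of these shifts was not tested.

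The replicate block over mouse numbers gave 372 genes for genotype within members in place of 36. Whether the numbers pair the mice is not known, since the labels give the numbers no meaning across genotypes. Deviations of same-numbered mice correlated at 0.0777 and 0.139 over only 2 pairs, and those of p19-/- mouse 3 and WT mouse 1 at 0.0804. With 2 WT mice the WT deviations are exact opposites of each other, so these correlations cannot decide it.

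Depth limited the comparison cells most, at 251073 to 518492 UMIs per mouse.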

Other observations

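Genes of the gate and of T cell help not followed above also changed with the number of the 4 genes found in a cell (none, 1, 2, and 3 or 4), at 2000 UMIs per cell and given as medians over the 5 mice in plain CPM. Tbc1d4, a regulator of glucose transporter traffic, stood at 330, 500, 627 and 733, and Pdcd1, which encodes PD-1, at 911, 1266, 1357 and 1492. Cd40lg stood at 171 in cells with none and at 280, 258 and 300 in the other classes. Sh2d1a, encoding the adaptor SAP, ran down from 430 through 392 and 278 to 226, and Tigit, an inhibitory receptor, from 639 through 473 and 401 to 300. Icos stood at 562.5 in cells with none and at 463.6, 465.8 and 402 in the other classes, but only p19-/- mice 1 and 2 were highest without the 4 genes. Tox2 (174.4, 251.3, 251.8 and 311.1) and Il21 (88, 133, 140.4 and 188.9) ran upward. Cxcr5 showed no such order (146, 170, 168 and 158), and neither did Maf (368, 297, 370 and 340). Pdcd1, Tbc1d4, Sh2d1a, Icos, Tox2, Il21, Cxcr5 and Maf belong to the gate, and every class was chosen by the rule, so these values carry no test.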
